A study of Sus scrofa with 90 samples.

Results

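Lesions of 21 d were compared with lesions of 7 d in skeletal muscle of pigs given propylene glycol, a solvent in which drugs for injection are dissolved, by the intramuscular route. The samples are those whose label ends with the 21 d or the 7 d lesion, 18 of the 48 muscle samples of the study. There were 9 lesions of 21 d, from pigs C to K, and 9 lesions of 7 d, from pigs C to I, K and L, so that 8 pigs gave both ages. The other samples are lesions of 6 h (10) and 2 d (10) and non-injected muscle of the same pigs (10), which served as the control.

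All 10 animals were piglets without a stated strain, sex or age, and every sample came from the Longissimus dorsi, the long muscle of the back. Each piglet received its 4 injections at sites placed at random, so a 21 d and a 7 d lesion of 1 pig are sites in the same animal, and the control site lay in an injected animal as well. Total RNA was reverse transcribed with a 33P label and hybridised to a nylon cDNA array, and spots were read from an imaging plate. A feature is 1 entry of the list of spotted cDNAs, identified here by the last number of its name. Of 4608 listed features, 1908 had a value in every sample and were tested. They were deposited on a logarithmic scale for which base and centring are not given in the sources used here, so differences are given in units of that scale and not as folds.

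Injured muscle passes through an ordered repair. Neutrophils and then macrophages enter and clear dead fibres, satellite cells (the resident muscle stem cells) divide and fuse into new fibres, and fibroblasts lay down extracellular matrix. Young regenerated fibres first carry developmental myosins and later replace them with adult fast and slow forms, while enzymes of glycolysis and creatine kinase return with the contractile apparatus. The comparison asks how far expression in the lesion still moved between the earlier and the later of these ages. Bulk RNA cannot tell fewer cells of a type from less RNA per cell.

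Some properties of the arrays bear on what follows. The array hybridised with the 6 h lesion of pig F appeared shifted along the feature list, with r = 0.24 to the mean of the other arrays in place and r = 0.739 when moved by 384 features, and it was left out of the fit. Every 21 d and 7 d array had r of at least 0.718 in place, the lowest in the 21 d array of pig J. The SD of the deposited values within an array was 0.643 ± 0.196 in 21 d lesions (SD, n = 9), 0.607 ± 0.158 in 7 d lesions (n = 9) and 0.976 ± 0.237 in control muscle (n = 10). Within the 8 pigs it differed by 0.063 between 21 d and 7 d, higher at 21 d in 6 of 8 (exact two-sided sign-flip test, p = 0.43, the smallest possible being 0.0078). The 21 d array of pig C had the widest spread of the 21 d and 7 d arrays, 1.10, and its values carry more decimals than theirs. The control arrays of pigs I, J and K carry more decimals too, with an SD of 1.16, 1.26 and 1.12. The comparisons with control were not repeated without these arrays. Quantile normalization gives all arrays the same spread, and the calls between the ages as well as those against control depended on it.

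Few features separated the 2 lesion ages. At 21 d, 3 features were higher and 10 were lower than at 7 d, 13 of 1908 in all (0.681%, with 0.157% higher and 0.524% lower; limma, Benjamini-Hochberg adjusted p below 0.05). At an unadjusted p below 0.05 there were 163 (8.54%). None of the 13 carries a gene symbol. Of the 121 genes with a symbol 0 passed (0.0%), against 12 at an unadjusted p below 0.05 (9.92%). The median difference over all features was 0.0026. For scale, 281 features (14.7%) differed from control at 21 d and 484 (25.4%) at 7 d.

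The count of 13 depends on choices in the processing. With the 6 h array of pig F kept it was 5 (3 higher, 2 lower), although that array is neither of 21 d nor of 7 d, since it enters the shared normalization and variance. It was 0 by limma on the deposited values without quantile normalization (20 features at an unadjusted p below 0.05), and 1 on median-centred values (higher; 24 at an unadjusted p below 0.05). Leaving out 1 pig at a time gave from 3 (without pig H) to 20 (without pig D), with 5 without pig K and 7 without pig E, G or I. The sign of the difference of all 13 features was the same under each of the alternatives tried. The alternatives reuse most of the arrays on which the 13 were chosen, so the stable sign is a description and no separate evidence.

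**Figure D1:**
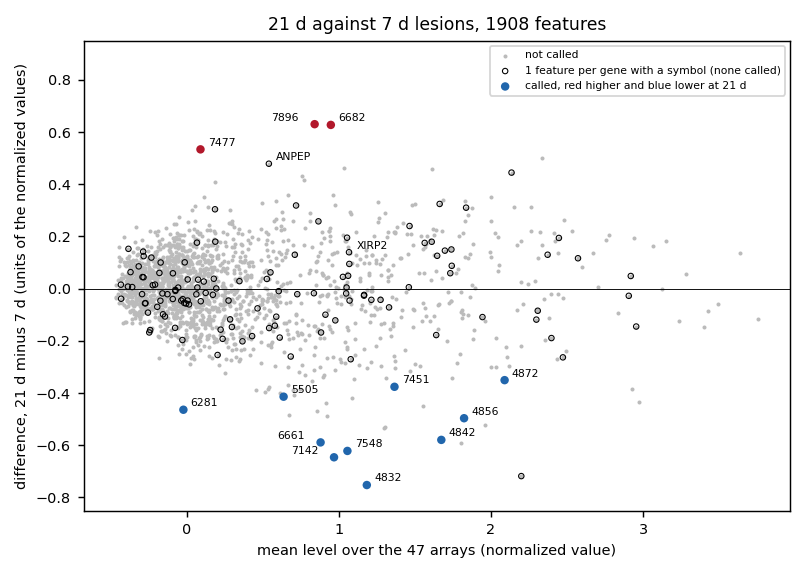
Difference between 21 d and 7 d lesions (vertical axis, units of the normalized values) against the mean level over the 47 arrays fitted (horizontal axis), 1 point per feature. The 3 red and 10 blue points are the features called higher and lower at 21 d, and the open circles mark the 121 genes with a symbol, none of them called.

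The 3 features that were higher at 21 d are 7896, 6682 and 7477, and all 3 were already above control at 7 d. Feature 7896 ranged from 1.44 to 2.82 with a median of 2.32 over the 9 lesions of 21 d, and from 0.83 to 1.88 with a median of 1.69 over the 9 lesions of 7 d. Control muscle lay between -0.42 and 0.30, apart from both lesion ages. The difference between the ages was 0.63 (SE 0.116, adjusted p = 0.00215), higher at 21 d in 8 of 8 pigs.

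Feature 6682 ran alongside it. Its 21 d values ranged from 1.28 to 2.85 with a median of 2.40, against 0.93 to 2.38 with a median of 1.62 at 7 d. The ages overlapped, but each pig was higher at 21 d than at 7 d, and the difference was 0.63 (SE 0.138, adjusted p = 0.0147). It was the one feature called on median-centred values, at 0.67 (adjusted p = 0.0338).

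Feature 7477 was low at the early times and in control muscle, where all 10 values lay below 0. Its values were 0.16 to 1.59 with a median of 0.92 at 21 d, and 0.04 to 0.85 with a median of 0.24 at 7 d. The difference was 0.53 (SE 0.111, adjusted p = 0.0113), in 8 of 8 pigs. Without pig H or pig K its adjusted p was 0.0704 or 0.0649, and that of feature 6682 was 0.0704 or 0.0847.

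The course of these 3 features over lesion age was alike in shape. For 7896 the mean was 0.036 in control muscle, 0.45 in lesions of 6 h, 0.046 in those of 2 d, 1.61 in those of 7 d and 2.24 in those of 21 d. Feature 6682 averaged 0.064 in control muscle and then, by rising lesion age, 0.66, 0.23, 1.68 and 2.28. For 7477 the means were -0.24, -0.16, -0.30, 0.36 and 0.87 in the same order. Each thus stood near its control level at 2 d and at its highest mean at 21 d. Their differences from control at 21 d were 2.21, 2.23 and 1.11, and they were 1.79, 1.88 and 1.03 on the deposited values, called under both scalings.

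**Figure D2:**
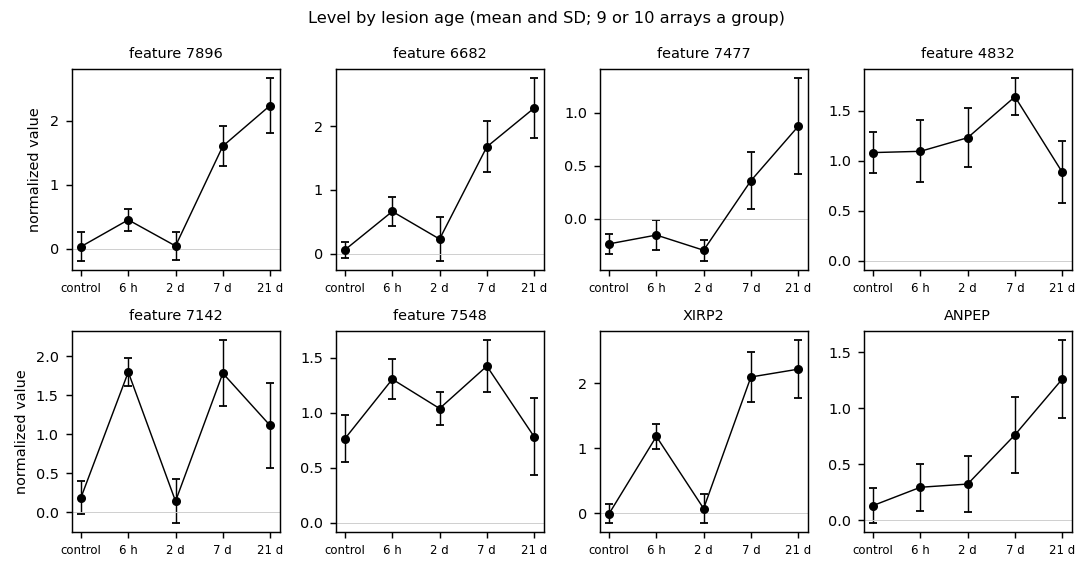
Mean normalized value (vertical axis, bars are the SD) in control muscle and in lesions of 6 h, 2 d, 7 d and 21 d (horizontal axis, 9 or 10 arrays a group) for 6 of the called features and for XIRP2 and ANPEP. Features 7896, 6682 and 7477 had their highest mean at 21 d, while 4832, 7142 and 7548 were lower at 21 d than at 7 d.

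The largest of all 1908 differences belonged to feature 4832, lower at 21 d. Its 21 d values ranged from 0.48 to 1.31 with a median of 0.79, and its 7 d values from 1.41 to 1.99 with a median of 1.63. It was the one feature of 1908 (0.0524%) whose 21 d and 7 d values did not overlap. The difference was -0.75 (SE 0.118, adjusted p = 0.000337), lower at 21 d in 8 of 8 pigs.

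Feature 7548 fell by 0.62 between the ages (SE 0.109, adjusted p = 0.00145). It lay between 0.16 and 1.22 with a median of 0.88 at 21 d, and between 1.21 and 1.94 with a median of 1.32 at 7 d. The 21 d lesion of pig E, at 1.22, reached into the range of 7 d. Its mean was 0.78 ± 0.35 in lesions of 21 d, 1.42 ± 0.23 in those of 7 d (SD, n = 9 each) and 0.77 ± 0.22 in control muscle (n = 10). The features 4832, 7548 and 7896 were the ones still called without pig H.

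By their position relative to control the 13 fell into several groups. The 3 higher features lay further from control at 21 d than at 7 d. Of the 10 lower features, 5 had moved towards control and were still called against it at 21 d, 4 had moved towards control and were no longer called, and 1 was called at 21 d and not at 7 d. Since the 7 d and 21 d arrays enter both these positions and the choice of the 13, this is a description.

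The 5 that stayed above control in the normalized values are 4842, 4856, 7142, 6661 and 7451. Feature 4842 averaged 1.94 ± 0.42 at 21 d, 2.53 ± 0.27 at 7 d (SD, n = 9 each) and 0.70 ± 0.13 in control muscle (n = 10). Its difference between the ages was -0.58 (SE 0.14, adjusted p = 0.0327), and it was the one called feature with a pig of the other sign, 7 of 8 being lower at 21 d. Pig D had 2.34 at 21 d and 2.32 at 7 d.

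Feature 4856 had a range of 1.32 to 2.70 at 21 d and of 2.09 to 2.82 at 7 d, above every control value (0.93 to 1.31). The difference was -0.50 (SE 0.119). Feature 7142 ranged from -0.092 to 1.94 at 21 d and from 1.35 to 2.51 at 7 d, with a difference of -0.65 (SE 0.158). Its lowest 21 d value came from pig J, while the other 8 lay between 0.91 and 1.94.

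For 6661 the values were 0.017 to 1.53 at 21 d and 1.06 to 2.10 at 7 d, a difference of -0.59 (SE 0.14). Pig J again had the lowest value of the 21 d group. Feature 7451 was at 0.96 to 1.79 at 21 d and at 1.43 to 2.24 at 7 d, a difference of -0.38 (SE 0.0798, adjusted p = 0.0122). The adjusted p was 0.0327 for 4856, 7142 and 6661, and all 4 of these features were lower at 21 d in 8 of 8 pigs.

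Early lesions shared part of this pattern. At 6 h the means of 4842, 4856, 7142 and 6661 were 2.33, 2.13, 1.80 and 1.42, each more than 1 unit above control, and at 2 d they were 1.05, 1.35, 0.14 and 0.27. These 4 features were therefore high at 6 h, near control at 2 d or somewhat above it, high again at 7 d and lower at 21 d. The course was not particular to them. Features 7451, 7548, 5505 and 4872 averaged 1.56, 1.31, 0.79 and 2.15 at 6 h, and 1.18, 1.04, 0.43 and 1.90 at 2 d. They too were higher at 7 d than at 21 d. How many of all features share this course was not counted, and 6 h lesions were not tested against control.

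The 4 features no longer called against control at 21 d in the normalized values are 4832, 7548, 4872 and 5505. Feature 4872 averaged 2.05 ± 0.15 at 21 d, 2.41 ± 0.14 at 7 d (SD, n = 9 each) and 1.98 ± 0.14 in control muscle (n = 10), a difference between the ages of -0.35 (SE 0.0764, adjusted p = 0.0147). Feature 5505 averaged 0.61 ± 0.19 at 21 d, 1.01 ± 0.27 at 7 d and 0.40 ± 0.18 in control muscle, a difference of -0.41 (SE 0.1, adjusted p = 0.0327). Both were lower at 21 d in 8 of 8 pigs. The 7 d values of 4872 lay between 2.35 and 2.60 except for pig K at 2.09.

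Where these features stood against control depended on the scaling, while their direction between the ages did not. On the deposited values 4832, 4872 and 7451 lay below control at 21 d (-0.77, -0.88 and -0.41) and less far below it at 7 d (-0.17, -0.58 and -0.09). In the normalized values they were at -0.21, 0.07 and 0.28 against control at 21 d, and at 0.55, 0.42 and 0.65 at 7 d. Feature 5505 turned from 0.20 in the normalized values to -0.10 in the deposited values at 21 d, and 7548 from 0.02 to -0.39. On the deposited values 4832, 4872 and 7548 were called below control at 21 d (limma, adjusted p = 0.000571, 0.00353 and 0.0254). There 5505 and 7451 were not called at 21 d. In the normalized values, the 21 d call of 7451 was lost with the 6 h array of pig F kept (limma, adjusted p = 0.072). It was also lost with the array SD as a covariate (0.272). The 7 d call of 4872 was lost with the 6 h array of pig F kept (0.0998), and that of 4832 with the covariate (0.0567). The features 4842, 4856, 7142 and 6661 were above control at both ages under both scalings, although 4856 at 0.21 and 6661 at 0.25 were not called at 21 d on the deposited values.

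Feature 6281 was the one not called against control at 7 d. It ranged from -0.55 to 0.057 at 21 d and from -0.079 to 1.14 at 7 d, a difference of -0.46 (SE 0.114, adjusted p = 0.0327). Against control muscle it was at -0.32 at 21 d and at 0.14 at 7 d. Its 21 d call against control was lost with the 6 h array of pig F kept (limma, adjusted p = 0.0634). With the array SD as a covariate it was lost as well, at -0.12 (limma, adjusted p = 0.678). The value of 1.14 came from the 7 d lesion of pig G, and the other 8 lay at or below 0.27. Without the 7 d array of pig G 10 features were called over the whole list, without the 21 d array of pig J 9, and without the 21 d array of pig C 12.

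The exact sign-flip test over the 8 pigs gave p = 0.0078 for 12 of the 13 features, the smallest value that 8 pairs allow, and p = 0.0234 for 4842. Over all features, 43 of 1908 (2.25%) had one sign in all 8 pigs. The 13 were chosen on the same arrays, so nothing is read from their share.

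Of the 13, 4 features (4832, 4842, 4856 and 4872) lie between feature numbers 4832 and 4872, a stretch with 27 tested features whose ends were set by the called features themselves, so its make-up tests nothing. Its other 23 features had a median difference of -0.073, with 16 lower at 21 d, against 0.0026 and 939 of 1908 lower over all features. When the running median over 51 neighbouring features was subtracted from each array, 5 features were called. Of the 4, feature 4832 then stood at -0.81 (adjusted p = 0.0011), and the others at -0.55, -0.29 and -0.26 were not called (adjusted p = 0.143, 0.464 and 0.34).

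**Figure D3:**
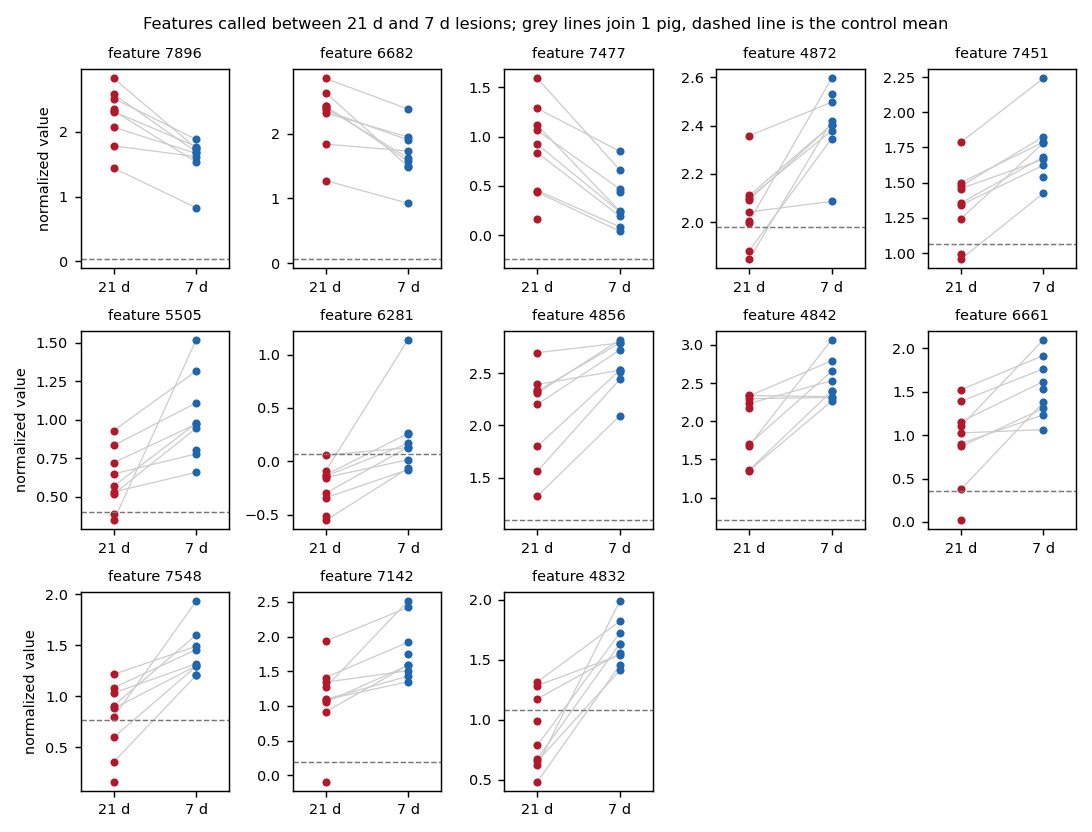
Normalized value (vertical axis) of the 13 called features in each lesion of 21 d (red, left) and 7 d (blue, right), with grey lines joining the 2 lesions of 1 pig and a dashed line at the mean of control muscle. In 12 of the 13 panels all 8 lines run in one direction, and feature 4832 is the one whose 2 groups do not overlap.

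No gene with a symbol was called between the ages, and the values below are given as measurements and not as changes. A symbol here is that of the array's annotation, and each gene is represented by its feature with the highest mean. Of 31 genes with several features, 9 had differences of one sign in all of them, so a gene name stands for the feature listed under it. Of the 121 genes, 56 had a difference above 0 and 65 a difference below 0.

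The 95% intervals show how large a difference the arrays leave room for on the scale of the normalized values, and they hold for that scale only. Of the 121 genes 78 had a mean level above the median of all features. The median SE was 0.111 over all features and 0.113 over the 121 genes. For 102 of the 121 genes the whole interval lay within 0.5 units of 0, and for 54 within 0.3 units. Over all 1908 features these numbers were 1681 and 886. By comparison, the 13 called features differed by 0.35 to 0.75.

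ANPEP, aminopeptidase N, a peptidase on the surface of myeloid and other cells, came nearest to the threshold. Its values at 21 d ranged from 0.90 to 1.81 with a median of 1.10, and those at 7 d from 0.25 to 1.25 with a median of 0.74. The difference was 0.48 (SE 0.124, adjusted p = 0.0558), higher at 21 d in 7 of 8 pigs. Pig H was the exception, with 1.02 at 21 d and 1.25 at 7 d. The adjusted p was 0.0341 without the pig as a block, 0.0425 with the pig as a random block, 0.035 among features above the median level and 0.0477 without the 21 d array of pig C, and over all alternatives it ranged up to 0.9996. Mean ANPEP was 0.13 in control muscle and then 0.30, 0.32, 0.76 and 1.26 by rising lesion age, and the second feature with this symbol showed a difference of 0.0045.

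Triosephosphate isomerase, TPI1, an enzyme of glycolysis, had 1.61 to 2.58 with a median of 1.86 at 21 d, and 1.33 to 2.03 with a median of 1.53 at 7 d. It was higher at 21 d in 8 of 8 pigs, by 0.31 (SE 0.0881, adjusted p = 0.102). Against control it was at -0.088 at 21 d, which was not called, and at -0.40 at 7 d, which was. On the deposited values both were called, at -1.02 at 21 d and -1.27 at 7 d.

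HSPE1, the small subunit of the mitochondrial chaperonin, had 2.02 to 2.98 at 21 d and 2.42 to 2.98 at 7 d. Its difference was -0.26 (SE 0.0916, adjusted p = 0.285), with 6 of 8 pigs lower at 21 d. Against control it was at 0.32 at 21 d and 0.58 at 7 d in the normalized values, and at -0.66 and -0.41 in the deposited values. At 21 d it was called in opposite directions under the 2 scalings (limma, adjusted p = 0.01255 normalized, 0.039 deposited). Its 21 d call was lost with the 6 h array of pig F kept (0.236) and with the array SD as a covariate (0.0686).

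Other genes with an unadjusted p below 0.05 had adjusted p-values from 0.369 to 0.578. Among the 8 above 0, besides ANPEP and TPI1, were CAPNS1, the small regulatory subunit of the calpain proteases, at 0.44, GPX4, which reduces lipid peroxides, at 0.32, the adult fast myosin heavy chain MYH1 at 0.30, TPT1, a translationally controlled tumour protein, at 0.24, the stress kinase MAPK12 at 0.19 and PRKACA, a catalytic subunit of protein kinase A, at 0.15. The 4 below 0 were HSPE1, MED27, a subunit of the Mediator complex, at -0.72, the glutathione transferase MGST3 at -0.26 and the fast myosin light chain MYL1 at -0.17. MED27 had the largest difference of any gene and also a wide interval, from -1.29 to -0.15. The values of MYH1 and CAPNS1 rest partly on 1 array, since the first was at 1.65 in the 21 d lesion of pig J and at most 0.78 in the other 8, and the second at 0.16 in the 7 d lesion of pig G and at least 1.49 in the other 8.

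**Figure D4:**
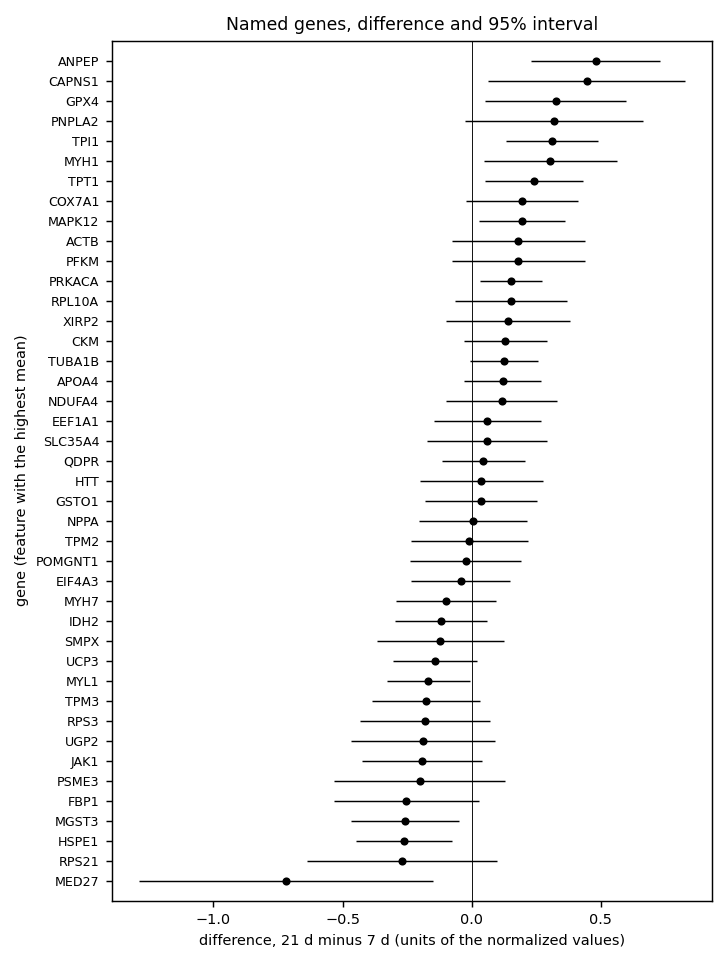
Difference between 21 d and 7 d lesions with its 95% interval (horizontal axis, units of the normalized values) for 42 genes with a symbol (vertical axis). The intervals of 12 genes exclude 0 before adjustment, from ANPEP at 0.48 to MED27 at -0.72, and none passed the test after it.

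Genes that stood apart from control at one age or the other are where a further change with lesion age could be looked for. In the normalized values 17 genes differed from control at 21 d (14.0%; 8 higher, 9 lower) and 25 at 7 d (20.7%; 9 higher, 16 lower), 13 of them at both and 29 at either. The 13 had the same direction at both ages. The 2 comparisons share the control arrays. For 26 of the 29 genes the 95% interval of the difference between 21 d and 7 d lay within 0.5 units of 0.

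XIRP2, an actin-binding protein of muscle cell junctions, was the gene furthest from control at both ages. It ranged from 1.59 to 2.89 with a median of 2.21 at 21 d, and from 1.61 to 2.67 with a median of 1.99 at 7 d, while its mean in control muscle was -0.0037 ± 0.14 (SD, n = 10). The difference between the ages was 0.14 (95% interval -0.10 to 0.38, adjusted p = 0.807), with 5 of 8 pigs higher at 21 d. Its distance from control was 2.22 at 21 d and 2.08 at 7 d, and on the deposited values 1.87 and 1.65.

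Of the other genes above control at both ages, JAK1, a kinase of cytokine receptors, averaged 0.36 ± 0.27 at 21 d and 0.56 ± 0.43 at 7 d (SD, n = 9 each), a difference of -0.19 (95% interval -0.42 to 0.040). UGP2, which makes UDP-glucose for glycogen, differed by -0.19 (interval -0.47 to 0.092), MYH7, the slow myosin heavy chain, by -0.10 (interval -0.29 to 0.093) and NPPA, a natriuretic peptide precursor, by 0.0045 (interval -0.20 to 0.21). On the deposited values MYH7 was level with control, at -0.07 at 21 d and -0.01 at 7 d, so it was above control in the normalized values and not in the deposited ones. On the deposited values UGP2 was called at 7 d at 0.40 but not at 21 d at 0.31 (adjusted p = 0.115), and JAK1 and NPPA were called at both ages. With the array SD as a covariate NPPA was called at neither age, at 0.19 at 21 d and 0.18 at 7 d (adjusted p = 0.43 and 0.36), and MYH7 was called at 7 d but not at 21 d (adjusted p = 0.252).

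Genes below control at both ages in the normalized values had small differences as well. POMGNT1, which glycosylates dystroglycan, averaged 0.87 ± 0.37 at 21 d and 0.91 ± 0.14 at 7 d, against 1.44 ± 0.13 in control muscle (n = 10), and its difference between the ages was -0.024 (interval -0.24 to 0.19). Beta-tropomyosin, TPM2, differed by -0.0094 (interval -0.24 to 0.22), the pterin reductase QDPR by 0.045 (interval -0.12 to 0.21), huntingtin, HTT, by 0.037 (interval -0.20 to 0.27) and SLC35A4 by 0.059 (interval -0.17 to 0.29). Muscle creatine kinase, CKM, averaged 2.31 ± 0.19 at 21 d, 2.18 ± 0.17 at 7 d and 2.56 ± 0.15 in control muscle, a difference of 0.13 (interval -0.030 to 0.29). The 9 other features with the CKM symbol had differences from -0.40 to 0.17. All 6 of these genes were called below control at both ages on the deposited values too. With the array SD as a covariate HTT and SLC35A4 were called at neither age (adjusted p from 0.513 to 0.75), and CKM, QDPR and TPM2 not at 21 d (adjusted p = 0.34, 0.0551 and 0.0649), and with the 6 h array of pig F kept SLC35A4 was called at neither age (adjusted p = 0.201 at 21 d and 0.0805 at 7 d) and HTT not at 21 d (0.0633).

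In the normalized values 12 genes were called against control at 7 d and not at 21 d. On the deposited values none of the 12 had this pattern, since 9 were called at both ages and MGST3, APOA4 and TUBA1B at neither. With the array SD as a covariate 3 of the 12 had it. TPT1, TPI1, CAPNS1, COX7A1, MAPK12, TUBA1B, RPL10A, PNPLA2, APOA4 and GSTO1 were below control at 7 d, and MGST3 and IDH2 above it in the normalized values (below it on the deposited values, at -0.10 and -0.74). Their differences between the ages ran from -0.26 for MGST3 to 0.44 for CAPNS1. COX7A1, a muscle subunit of cytochrome oxidase, differed by 0.20 (interval -0.021 to 0.41), PNPLA2, the first lipase of stored fat, by 0.32 (interval -0.026 to 0.66), and the tubulin TUBA1B by 0.12 (interval -0.0070 to 0.26). A call at one age and not at the other does not show that the ages differ, and none of the 12 passed the test between them. Conversely, in the normalized values 4 genes were called at 21 d and not at 7 d, ACTB above control and TPM3, EIF4A3 and UCP3 below it, with differences between the ages from -0.18 for TPM3 to 0.18 for ACTB. On the deposited values TPM3, EIF4A3 and UCP3 were called at both ages and ACTB at neither (0.15 at 21 d, adjusted p = 0.346), and with the 6 h array of pig F kept 0 of the 4 were called at 21 d by limma (adjusted p from 0.0634 to 0.227).

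In the normalized values most features called above control at 7 d were lower at 21 d, and most called below it were higher. These counts were not made under the other scalings, where the lists against control differ. Of the 124 features above control at 21 d (6.5%), 72 were lower and 52 higher at 21 d than at 7 d, and of the 157 below it (8.23%), 63 were lower and 94 higher. Of the 205 above control at 7 d (10.7%), 173 were lower at 21 d than at 7 d, and 12 of the 205 were called between the ages, against 939 lower (49.2%) and 13 called (0.681%) of all 1908. Of the 279 below control at 7 d (14.6%), 250 were higher at 21 d, against 50.8% of all features, with 0 called by limma. The same arrays made the choice and enter the difference, so these counts describe the lists and test nothing. Called at both ages were 227 features, 80.8% of the 21 d list and 46.9% of the 7 d list.

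Gene lists drawn up for muscle repair gave no called gene in either direction. Among 25 lists, 10 had at least 3 measured genes. In the slow and cardiac-type sarcomere list 2 of 7 genes had a difference above 0 (all features: 50.8%) and the median was -0.045, from -0.18 for TPM3 to 0.0045 for NPPA. The fast fibre sarcomere list had 4 of 9 above 0 and a median of -0.022, from -0.19 for TPM1 to 0.30 for MYH1. In the list of shared sarcomere, Z disc and costamere proteins 2 of 6 were above 0, with a median of -0.024. The median over all features was 0.0026.

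In the metabolic lists no gene passed either. Glycolysis and glycogen had 5 of 8 genes above 0 and a median of 0.011, from -0.19 for UGP2 to 0.31 for TPI1. PFKM, the muscle phosphofructokinase, was at 0.18 and GAPDH at 0.0056. The other feature with the PFKM symbol was at -0.18, and the 5 GAPDH features ran from -0.072 to 0.12. The 3 measured genes in the list of nuclear encoded oxidative phosphorylation, NDUFA4, COX7A1 and VDAC1, were all above 0, with a median of 0.12. Among 13 ribosomal proteins 4 were above 0 and 9 below it, with a median of -0.048, from -0.27 for RPS21 to 0.15 for RPL10A.

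Of the remaining lists, the 3 translation factors had a median of 0.060, with EEF1A1, the elongation factor, at 0.060. The 3 genes of the non-muscle cytoskeleton, ACTB, TUBA1B and CFL1, were all above 0 in the feature used, with a median of 0.12. Of the 7 features with the ACTB symbol, however, 1 was above 0 and 6 below it, from -0.24 to 0.18. In the list of inflammatory and cytokine signalling, 2 of 5 genes were above 0, MAPK12 at 0.19 and MIF at 0.027, with a median of -0.021. Below 0 were JAK1 at -0.19, PTGS2, the inducible cyclooxygenase, at -0.11 and NFKBIA, an inhibitor of NF-kappa-B, at -0.021. Fibronectin, FN1, one of 2 measured genes of extracellular matrix and remodelling, differed by -0.055 (interval -0.26 to 0.15), and the other was ANPEP.

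**Figure D5:**
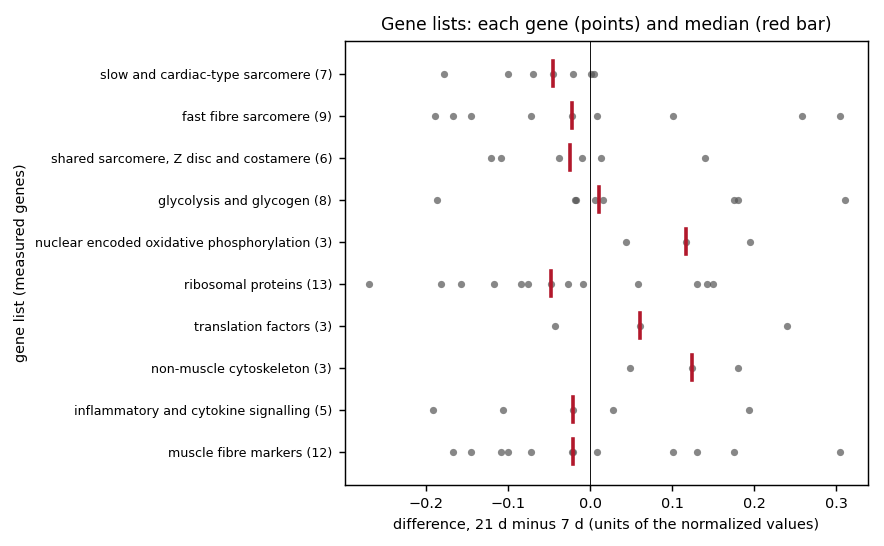
Difference between 21 d and 7 d lesions (horizontal axis, units of the normalized values) for each measured gene (grey points) of the 10 gene lists with at least 3 measured genes (vertical axis, number of genes in brackets), with the median as a red bar. The medians lie between -0.048 and 0.12, and 0 of the genes were called.

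Few of the genes that mark muscle repair were among these features. No tested feature carried a symbol from the marker lists of neutrophils, macrophages, lymphocytes, fibroblasts or erythrocytes, or from the list of developmental myosins and myogenic factors. Outside these lists, and chosen after their values were seen, FOLR2, a folate receptor of macrophages, differed by -0.023 (interval -0.24 to 0.19) and CD74, the invariant chain of cells that present antigen, by -0.016 (interval -0.33 to 0.30), and neither was called against control at 21 d or at 7 d. Of the endothelial markers PECAM1 alone was measured, with a difference of -0.0047, and of the proliferation list HMGB2 alone, at -0.021. Their mean levels were low, at -0.074 and -0.29, so nothing is read from them about endothelium or proliferation. Of 21 muscle fibre markers 12 were measured, which means only that they had a value in every sample. Mean levels over the arrays fitted ran from -0.39 for TNNI2 and -0.25 for MYL1 to 2.37 for CKM and 2.955 for TNNC2. Not all of the 12 were therefore high in this muscle. The mean over the 12 per array was 0.75 to 1.05 at 21 d, 0.70 to 0.99 at 7 d and 0.80 to 1.06 in control muscle. The 3 ranges overlapped. The part of infiltrating cells in the 13 called features was not tested.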

How the data were processed

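The deposited values are log values of unstated base, an "other" unit that is neither counts nor intensities, and the authors' background correction, centring and filter are not given in the sources used here. Per the labels, 5 µg total RNA was labelled per sample and plates were scanned at 25 µm. The 90 columns belong to 48 samples. The columns of 1 sample were averaged (identical in 41 of 42 pairs), and 1 column of the 6 h lesion of pig J, a copy of the control of pig I, was left out. Values were quantile-normalized over 47 arrays and fitted with limma 3.58.1 in R 4.3.3 (lmFit, eBayes; terms for the 5 groups and for pig; 33 residual degrees of freedom), with two-sided p-values adjusted over 1908 features. Pig was a fixed block because samples with the same letter come from 1 animal. Deviations from the group means correlated with a median r of 0.22 between the 2 lesions of a pig (8 pairs) and -0.031 between pigs (73 pairs). Precision is limited by how many arrays there are.

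The comparison, the lists, the rule for named genes and the omission of the 6 h array of pig F, which was known to raise the count, were chosen with earlier results of these data known. The rule named every called feature, genes with an unadjusted p below 0.05, the 6 largest differences in each direction, genes called against control at either age, and 2 members per list that had 3 or more measured genes. Other list members and markers were chosen after their values were seen. Of the features 206 carry 1 symbol (121 genes) and 1702 none, and 204 gene identifiers matched the current gene table. Figures were drawn with matplotlib 3.10.9. The fit was also run on simulated data with known changes. Their noise was independent between arrays and features and held no pig effect. The run therefore cannot show how far the calls depend on the processing.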

Additional observations from a re-analysis of the deposited data

Results flagged for a closer look

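Values that stood apart from the other 8 of their group by Dixon's criterion at the 95% level were found in 17 of 112 groups checked, where chance flags about 1 in 20. Without the 21 d array of pig C, the 21 d array of pig J or the 7 d array of pig G, which hold 11 of these values, 12, 9 and 10 features were called between the ages, against 13 with all arrays. The other 6 values were covered only by leaving out the whole pig, which gave 9 features without pig C, 20 without D, 7 without E, 3 without H and 5 without K.

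At 21 d, 5 of them came from pig J, whose array had the lowest correlation with the other arrays. Feature 7142 was at -0.092 there against 0.91 to 1.94 in the others, and EIF4A3 at 0.23 against 1.06 to 1.44. MYH1 was at 1.65 against 0.016 to 0.78, MYH7 at 1.56 against 0.74 to 1.15 and NPPA at 0.83 against -0.036 to 0.40. Both myosin heavy chains were thus high in the same lesion. TPI1 was at 2.58 in the 21 d lesion of pig K, and the SD of the values within the 21 d array of pig C was 1.10 against 0.42 to 0.74 in the others.

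At 7 d, another 5 came from pig G. CAPNS1 was low there at 0.16, while feature 6281 at 1.14, FBP1 at 1.49, PSME3 at 1.32 and TPM3 at 2.18 were high. The remaining values were feature 7896 at 0.83 in pig C, feature 7451 at 2.24 in pig D, feature 4872 at 2.09 in pig K, SMPX at 1.57 in pig H and TPM2 at 1.38 in pig E.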

How the results depend on the processing

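The count of features called between 21 d and 7 d, 13 as reported, was 5 with the 6 h array of pig F kept, 0 on table values, 1 on median-centred values, 7 with the 7 d and 21 d arrays alone, 8 with the 8 pigs that have both ages, 5 with the local trend subtracted and 7 without the arrays whose values carry more decimals; leaving out 1 pig or 1 array gave 3 to 20. Without the replicate block it was 16, as with pig as a random replicate block, and in each of these ANPEP was called, so that 1 gene with a symbol passed rather than 0; the same 1 gene passed among features above the median level and without the 21 d array of pig C, and leaving out pigs or arrays gave 0 to 1. The difference in array SD stayed between 0.022 and 0.11 with 1 pig left out. Features called against control, 281 at 21 d and 484 at 7 d, were 708 and 744 on table values, 742 and 782 after centring each array on its median, 111 and 265 with array SD as a covariate, and 177 and 393 with the 6 h array of pig F kept. The split turned with the scaling: at 21 d 124 were higher and 157 lower, against 178 and 530 on table values and 93 and 18 with that covariate. For these movements the cause was not tested.

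No called feature changed sign in any alternative, and 8 genes did, none of them called between the ages in any. For the called features this is a description, since the alternatives reuse most of the arrays on which they were chosen. With the 7 d and 21 d arrays alone EIF4A3 was at 0.036, NPPA at -0.063 and POMGNT1 at 0.020. With the 8 pigs they were at 0.036, -0.060 and 0.022, with array weights at 0.037, -0.076 and 0.076, and as mean pair differences at 0.045, -0.081 and 0.026. GSTO1 was at -0.022 with array weights and at -0.016 without the arrays with more decimals, HTT at -0.027 on table values, -0.022 on median-centred values and -0.018 without the arrays with more decimals, NPPA at -0.0012 when both samples touched by the copied column were left out, QDPR at -0.049 with the local trend subtracted, and TPM2 at 0.028 without the replicate block, 0.032 with the random one and 0.040 with array weights. Leaving out 1 pig or array gave -0.094 to 0.045 for EIF4A3, -0.016 to 0.071 for GSTO1, -0.062 to 0.095 for HTT, -0.063 to 0.045 for NPPA, -0.068 to 0.058 for POMGNT1, -0.014 to 0.097 for QDPR, -0.0051 to 0.16 for SLC35A4 and -0.068 to 0.093 for TPM2. The 4 alternatives that leave out the arrays of pig C, G or J or those with more decimals, and the other scalings of the comparisons with control, were chosen after seeing the data.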
